A study of Mus musculus with 165 samples.

Results

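The clustered protocadherins were followed through the adult life of the mouse in brain and, for comparison, in liver. Members were the rows of the count tables whose gene symbol was Pcdha, Pcdhb, Pcdhga, Pcdhgb, Pcdhac or Pcdhgc followed by a number. This gave 58 of the 55471 rows: 12 alpha, 22 beta, 12 gamma A, 7 gamma B and 5 C-type genes. The C-type genes were Pcdhac1, Pcdhac2, Pcdhgc3, Pcdhgc4 and Pcdhgc5. The rule reads symbols alone, but the family as a whole was chosen by its brain values across age in these same libraries, so the calls below describe it and are not independent support. Polyadenylated RNA had been sequenced from male mice of the inbred strain C57BL/6J/Ukj, with no other treatment or allele in the labels, at 3, 9, 15, 24 and 28 months. There were 15, 16, 16, 17 and 18 brain libraries in order of age, and 16, 16, 16, 17 and 18 liver libraries, each from 1 mouse. The labels also placed each library in 1 of 3 preparations, called prep 1, 2 and 3 here, and every prep held all 5 ages.

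Clustered protocadherins are cell adhesion proteins of the neuronal surface. In the alpha and gamma clusters each gene is a long variable exon with its own promoter, and its transcript is spliced to constant exons shared by the whole cluster, which encode the common end of the protein inside the cell. Beta genes are single exons with no shared part. Most neurons use a random few of the alpha, beta, gamma A and gamma B promoters, a choice that involves DNA methylation, CTCF and cohesin, while the C-type genes are used more regularly. Proteins of the same combination recognise each other between membranes, which lets branches of 1 neuron avoid each other and guides dendrite growth, axon spacing and the survival of some neurons.

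The 3 clusters lie in a row on chromosome 18. In the GENCODE M21 annotation of GRCm38, which may differ from the annotation used for the counts, the alpha cluster spans 36930184 to 37187661, the beta cluster 37264938 to 37524479 and the gamma cluster 37661793 to 37841873, all on the plus strand. Beta members are single-exon genes of which 2588 to 8695 bases belong to no other member. Alpha, gamma A, gamma B and C-type members combine a variable exon of their own with constant exons that overlap those of the rest of their cluster. How reads in the constant exons were assigned is not given in the sources used here. Of the windows of 100 bases in a beta member's own exon, a median of 0.207% recurred in another member, and in an alpha member a median of 5.45%. Pcdhga4 shared 37.4% of its windows with other members, most of them with Pcdhgb1, so its count is uncertain. Of the members described below, Pcdha4, Pcdhb12, Pcdha12, Pcdhga1, Pcdhga11, Pcdhga12, Pcdhgb7 and Pcdhgc3 overlap a gene on the opposite strand. Without a stated strand setting, reads of such partners cannot be told from those of the member. Genes outside the family also overlap some members on the same strand, among them Pcdha4, Pcdha6, Pcdha7 and all members of the gamma cluster. The symbol Pcdha11 belongs to 2 rows, which were kept apart.

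Brain libraries held 11460609 to 73390216 counts. Tests were edgeR quasi-likelihood tests over all tested genes, with p-values adjusted by Benjamini-Hochberg, and a member is described as called, higher or lower where that value was under 0.05. Levels are CPM, counts scaled by the size of the library over the tested genes, multiplied by its TMM normalization factor. A pair of brain libraries stood apart from the others of their age. The median Spearman correlation with libraries of the same age was 0.869 for 28 months replicate 15 (prep 3) and 0.954 for 24 months replicate 13 (prep 2), against 0.985 for the next lowest library. In replicate 15 of the 28-month group, 37 of the 58 members had 3 counts or fewer, and in replicate 13 of the 24-month group 17 members did. The loss was not even across groups. In replicate 13, alpha members stood at a median of 3.28% of their usual level at that age, gamma A members at 4.28%, gamma B members at 3.39% and C-type members at 4.03%, but beta members at 73.1%. In replicate 15, alpha, gamma A and gamma B members had a median of 0% and beta members one of 15.2%, while Pcdhgc4 kept 120% and Pcdhga12 75.9%. Genes with long exon models were low against short ones in both libraries, by -2.80 and -1.76 on the log2 scale, where all other brain libraries lay between -0.38 and 0.44. The part of this in the members' values was not tested. Results are given with all libraries and without these 2, a choice made after seeing the data for part of the results.

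**Figure D1:**
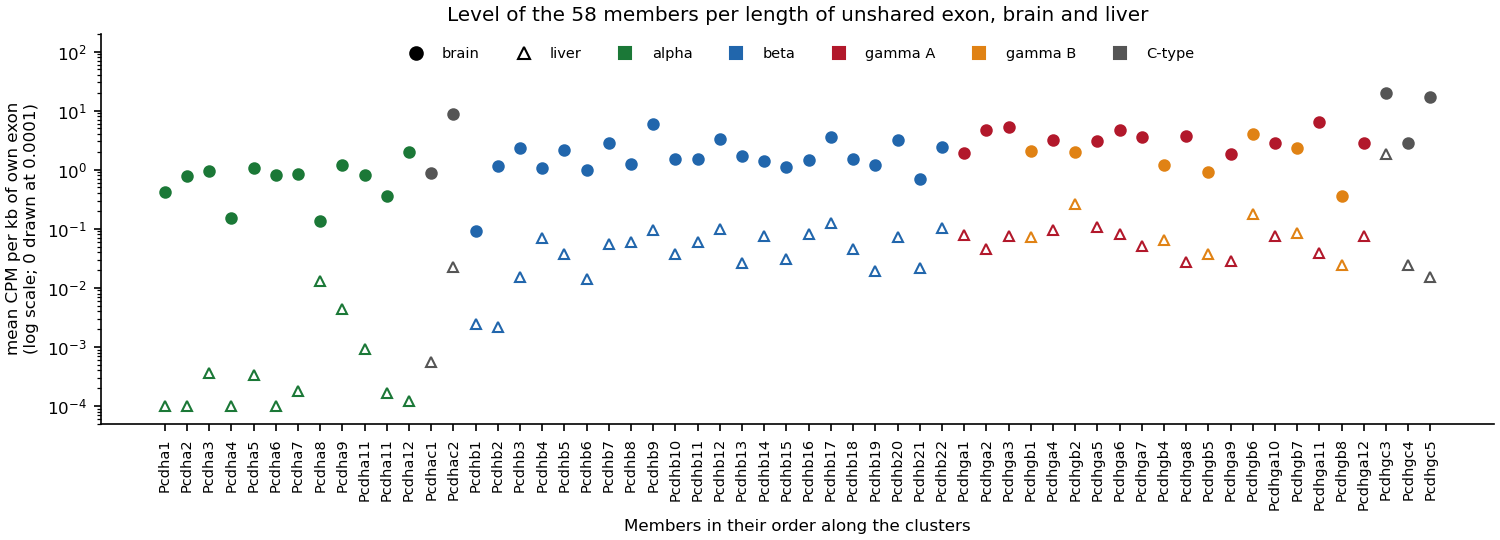
Mean level of each of the 58 members in brain (filled circles) and liver (open triangles), in the order of the genes along the clusters. Levels are CPM per kilobase of exon that belongs to no other gene on the same strand, on a log scale. Brain levels lie above liver levels for every member, and the C-type genes Pcdhgc3 and Pcdhgc5 are the highest in the brain.

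All 58 members were counted in the brain, at levels that differed widely. Per kilobase of exon not shared with another gene on the same strand, mean brain levels over all ages ran from 0.09 CPM for Pcdhb1 to 20.1 CPM for Pcdhgc3. C-type genes had a median of 8.66 CPM per kilobase, gamma A genes 3.39, gamma B genes 1.98, beta genes 1.5 and alpha genes 0.818. Outside the C-type genes, the highest of each group were Pcdhga11 at 6.32, Pcdhb9 at 5.89, Pcdhgb6 at 4.08 and Pcdha12 at 2.01 CPM per kilobase. Pcdha4 was left out of the tests, with a median of 3 counts, so 57 members were tested in the brain. Of its 5768 exon bases, 494 belong to no other gene on the same strand, and it overlaps the gene Gm42416 there. The part of this in its low count was not tested. In the median, replicates varied more in the members than in other genes. Without the 2 libraries that stood apart, edgeR's biological coefficient of variation had a median of 0.152 in the members. It was 0.117 over the 15165 tested genes in the same range of mean level, a wide range in which genes were not matched. Group medians were 0.191 for alpha, 0.162 for gamma B, 0.147 for gamma A, 0.131 for beta and 0.127 for C-type genes.

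The main comparison asked which members differed between young and old brains. Between 3 and 28 months, 10 of 57 members were higher and 4 lower at 28 months. The 14 members called were 24.6% of those tested, where 28.3% of all tested genes were called in either direction, 16.3% as higher and 12% as lower. Beta genes made up 9 of the 10 members that rose. They were Pcdhb1, Pcdhb2, Pcdhb3, Pcdhb4, Pcdhb5, Pcdhb6, Pcdhb8, Pcdhb9 and Pcdhb12, and the tenth was Pcdhga2. The 4 that fell came from 4 groups, Pcdha12, Pcdhac1, Pcdhb18 and Pcdhgb2. Without the 2 libraries, 16 members were higher and 12 lower, where 34.1% of all genes were called, 17.5% as higher and 16.6% as lower. All 14 members above were among these 28. The share of members called lay near that of all genes with all libraries and above it at 49.1% without the 2, a difference that was not tested.

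**Figure D2:**
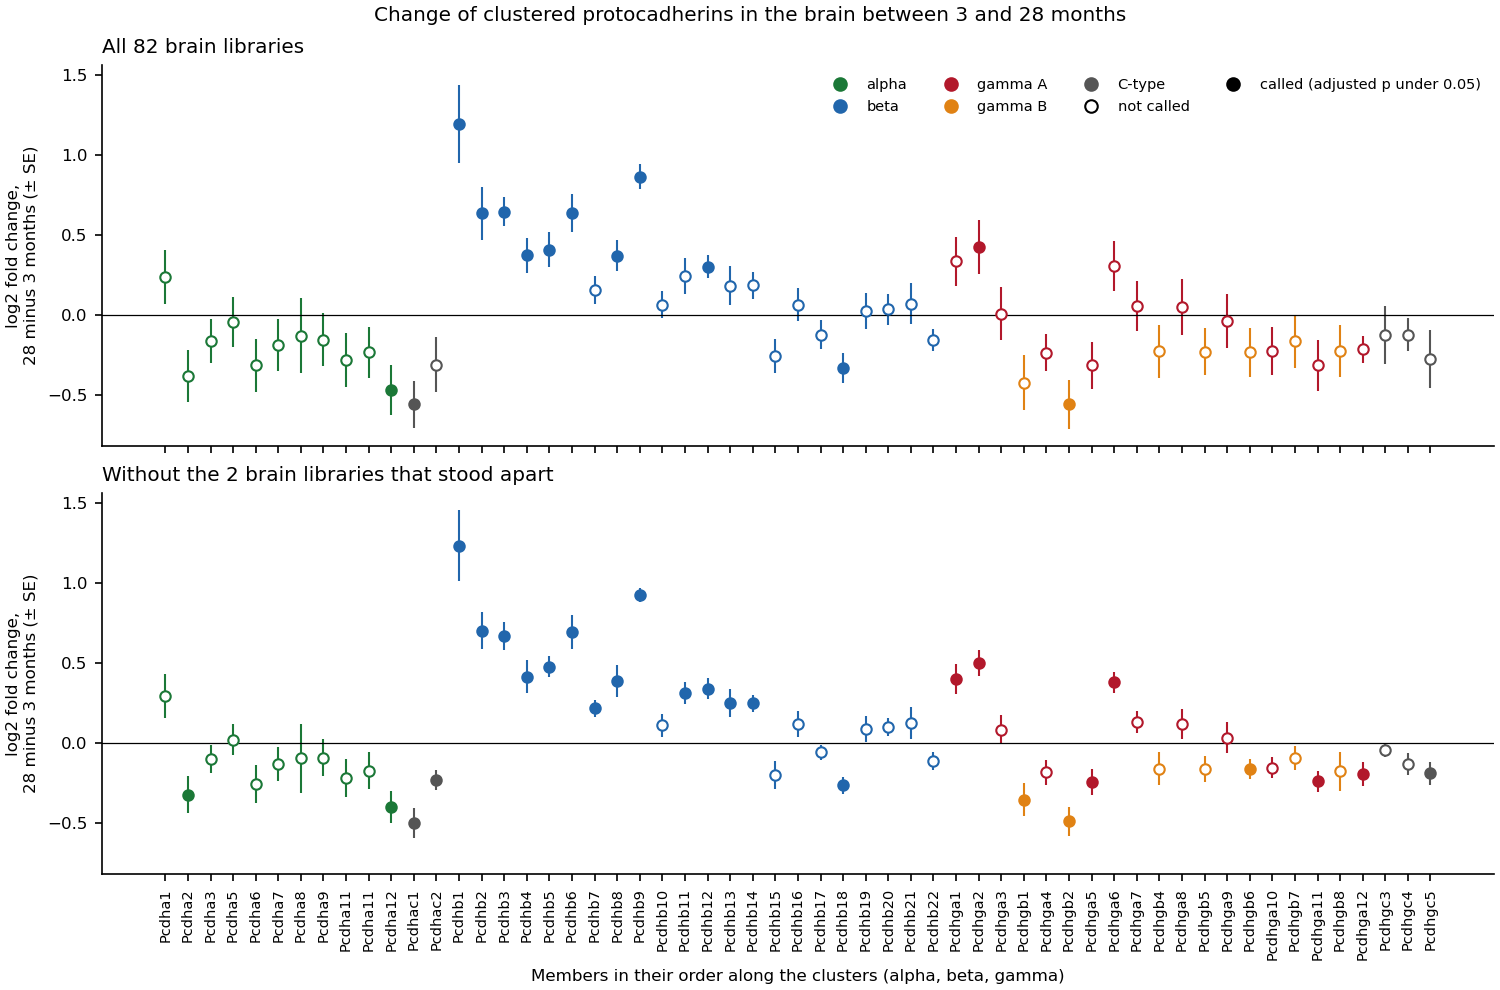
Log2 fold change between 3 and 28 months in the brain, with its standard error, for the 57 tested members in their order along the clusters, with all 82 libraries above and without the 2 that stood apart below. Filled points were called, and the run of filled points above 0 at the start of the beta cluster reaches from Pcdhb1 to Pcdhb9, with Pcdhb7 open in the upper panel.

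Among the 22 beta genes the change went with place in the cluster, a division made after the values were seen. Pcdhb1 to Pcdhb9 lie at the end that faces the alpha cluster. Of these 9, 8 were higher at 28 months and none lower, and their log2 fold changes ran from 0.16 to 1.20, with a median of 0.64. All 9 were higher without the 2 libraries, including Pcdhb7 at 0.22 ± 0.05 (SE). Of the 13 genes from Pcdhb10 to Pcdhb22, 1 was higher and 1 lower, with a median of 0.07. Of these 13, 4 were higher without the 2 libraries (Pcdhb11, Pcdhb12, Pcdhb13 and Pcdhb14) and 1 lower, with a median of 0.11. The median over all tested genes was 0.01.

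Pcdhb9 gave the clearest separation of ages. At 3 months its level ran from 10.9 through a median of 11.9 to 13.3 CPM. It ran from 13.8 through 15.8 to 18.9 CPM at 9 months and from 16.4 through 18.5 to 20.4 CPM at 15 months. It then ran from 18.2 through 20.8 to 23.8 CPM at 24 months and from 4.71 through 22.5 to 25.9 CPM at 28 months. The 3-month libraries thus lay below every library of 9, 15 and 24 months, and below all 28-month libraries except replicate 15, without which the lowest was 20.1 CPM. Pcdhb9 was the 1 member called between 3 and 9 months (0.315% of all genes called), at a log2 fold change of 0.39 ± 0.08 (SE, adjusted p = 0.00359). Without the 2 libraries it was called together with Pcdhga2 (0.942% of all genes). By 28 months the log2 fold change was 0.87 ± 0.08 (adjusted p = 3.34e-15), and 0.93 ± 0.04 (adjusted p = 1.97e-31) without the 2 libraries. The log2 fold changes within preps 1, 2 and 3 were 0.88, 0.97 and 0.76. Among the counts of the beta cluster, the median share of Pcdhb9 was 7.93% at 3 months (6.30% to 9.05%) and 12.1% at 28 months (10.7% to 14.5%) without the 2 libraries.

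Pcdhb3 separated as well. It ran from 5.24 through 6.89 to 8.12 CPM at 3 months and from 7.24 through 10.1 to 15.6 CPM at 28 months. Every 24-month library lay above every 3-month library, and so did every 28-month library except replicate 15. Its log2 fold change at 28 months was 0.65 ± 0.09 (adjusted p = 3.76e-08). Pcdhb1 had the highest fold change but the lowest level of the tested beta genes. It ran from 0 through 0.136 to 0.255 CPM at 3 months and from 0 through 0.294 to 0.799 CPM at 28 months, a log2 fold change of 1.20 ± 0.24 (adjusted p = 8.45e-05). Of the 17 libraries at 28 months other than replicate 15, 12 lay above the highest at 3 months, so the ages overlapped.

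Pcdhb2 ran from 1.52 through 2.44 to 3.70 CPM at 3 months and from 0 through 3.97 to 4.92 CPM at 28 months, with a log2 fold change of 0.64 ± 0.17 (adjusted p = 0.00213). Pcdhb6 ran from 1.82 through 2.72 to 3.98 CPM and from 0.804 through 4.12 to 5.35 CPM, with a log2 fold change of 0.64 ± 0.12 (adjusted p = 1.98e-05). In both genes the lowest old library was replicate 15, and without the 2 libraries all 17 old libraries lay above the 3-month median. Pcdhb4 rose from a median of 3.04 to one of 4.38 CPM (log2 fold change 0.37 ± 0.11, adjusted p = 0.007). Pcdhb5 rose from 6.4 to 8.88 CPM (0.41 ± 0.11, adjusted p = 0.00269) and Pcdhb8 from 3.16 to 4.48 CPM (0.37 ± 0.10, adjusted p = 0.00271). These 3 overlapped between the ages.

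Further along the cluster, Pcdhb12 ran from 7.03 through 8.57 to 10.7 CPM at 3 months and from 5.17 through 10.9 to 13.9 CPM at 28 months with an increase of 0.30 ± 0.07 on the log2 scale (adjusted p = 0.000954). Pcdhb18 went the other way. It ran from 7.24 through 9.01 to 10.1 CPM at 3 months and from 0.459 through 7.15 to 8.65 CPM at 28 months. Every 28-month library lay below the 3-month median, 8 of the 17 other than replicate 15 lay below the lowest 3-month library, and the log2 fold change was -0.33 ± 0.10 (adjusted p = 0.00682).

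**Figure D3:**
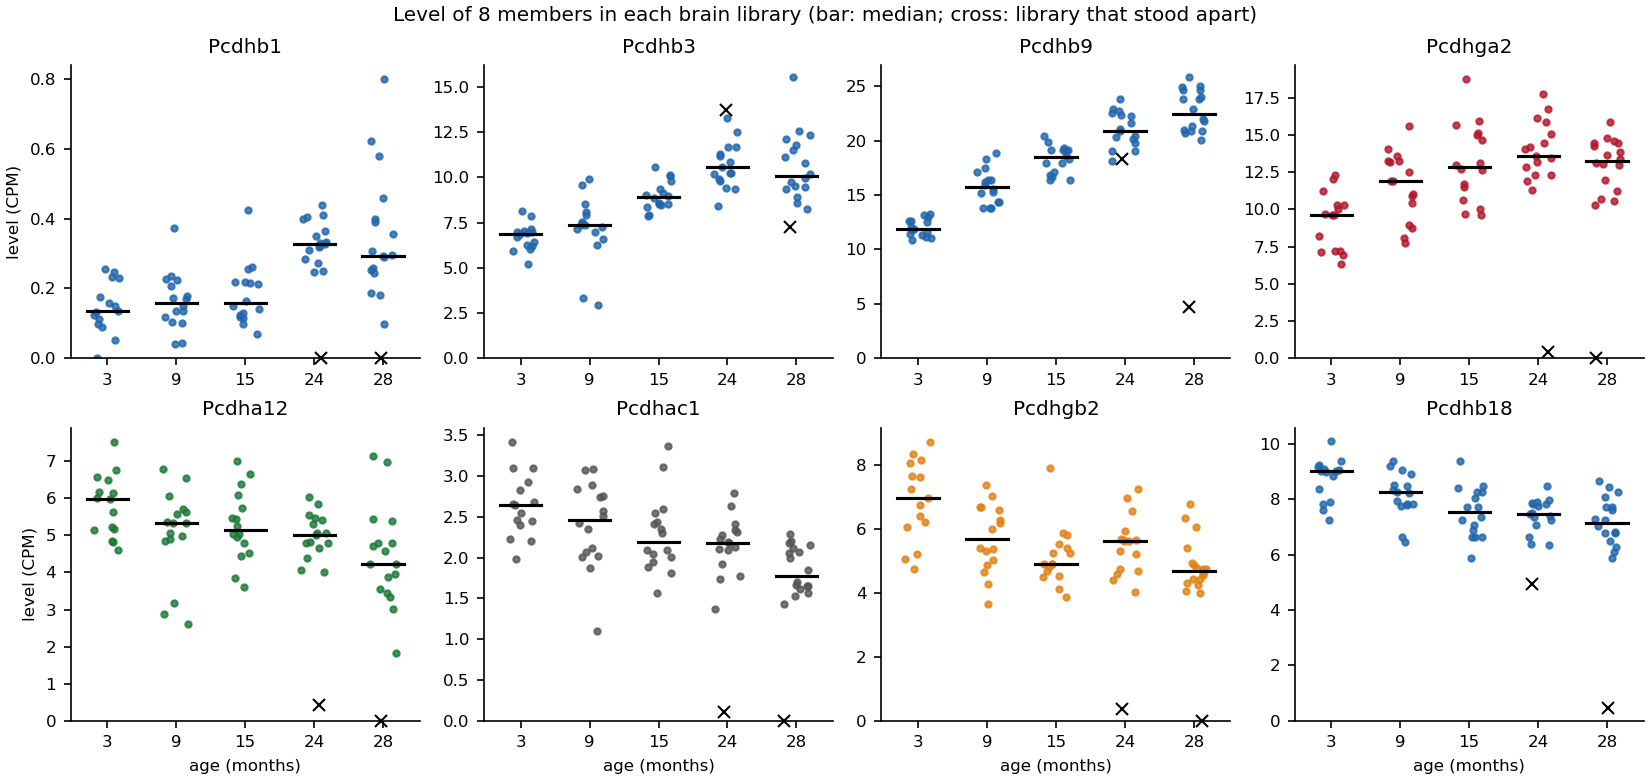
Level of 8 members in every brain library by age, in CPM on axes that start at 0, with the median of each age as a bar and the 2 libraries that stood apart as crosses. Pcdhb9 and Pcdhb3 move up with age with little overlap, and Pcdha12, Pcdhac1, Pcdhgb2 and Pcdhb18 move down with overlap.

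Gamma A genes were split. With all libraries 1 of 12 was higher at 28 months and none lower, and the median log2 fold change was -0.01. Pcdhga2 ran from 6.34 through 9.63 to 12.3 CPM at 3 months and from 0 through 13.3 to 15.9 CPM at 28 months. The log2 fold change was 0.43 ± 0.17 (adjusted p = 0.0475) and 0.50 ± 0.08 (adjusted p = 7.8e-07) without the 2 libraries. The call with all libraries was marginal. It was lost with no filter on low counts (0.42), with the replicate block (0.39) and in most of the fits that left out 1 library. In a fit of the 3- and 28-month libraries alone, Pcdhga2, Pcdhb5, Pcdhb18 and Pcdha12 were not called, at 0.43, 0.41, -0.33 and -0.47, and Pcdhb1 did not pass the filter on low counts. Pcdhga11, the gamma A gene with the highest level, ran from 14.7 through 18.1 to 24.8 CPM and from 0 through 15.6 to 19.7 CPM. Its log2 fold change was -0.31 ± 0.16 (adjusted p = 0.128), and -0.24 ± 0.07 (adjusted p = 0.00334) without the 2 libraries. When they were left out, 3 gamma A genes were higher, Pcdhga1 (0.40 ± 0.09), Pcdhga2 and Pcdhga6 (0.38 ± 0.06), and 3 were lower, Pcdhga5 (-0.24 ± 0.08), Pcdhga11 and Pcdhga12.

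All 7 gamma B genes stood below 0 at 28 months on the log2 scale, with a median of -0.23, and 1, Pcdhgb2, was called. It ran from 4.73 through 6.94 to 8.71 CPM at 3 months and from 0 through 4.66 to 6.78 CPM at 28 months. Its log2 fold change was -0.56 ± 0.15 (adjusted p = 0.00366). Every old library lay below the 3-month median. Pcdhgb6, the gamma B gene with the highest level, had medians of 11.9 and 9.87 CPM (log2 fold change -0.23 ± 0.15, adjusted p = 0.257). Pcdhgb7, which differed least, had medians of 6.07 and 5.92 CPM (-0.16 ± 0.17, adjusted p = 0.488). Pcdhgb1 and Pcdhgb6 were called beside Pcdhgb2 without the 2 libraries, all 3 as lower.

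Of the 11 alpha genes tested, 1 was lower and 10 had log2 fold changes below 0, with a median of -0.19. Pcdha12, the alpha gene with the highest level, ran from 4.60 through 5.99 to 7.52 CPM at 3 months and from 0 through 4.23 to 7.13 CPM at 28 months. The ages overlapped, with 10 of the 17 old libraries other than replicate 15 below the lowest young one, and the log2 fold change was -0.47 ± 0.16 (adjusted p = 0.0187). Pcdha1, the first gene of the cluster, was the 1 alpha gene with a positive value, at medians of 0.897 and 1.25 CPM (0.24 ± 0.17, adjusted p = 0.285). Pcdha2 was not called with all libraries (-0.38 ± 0.16, adjusted p = 0.069) and was called as lower without the 2 libraries (-0.32 ± 0.11, adjusted p = 0.022).

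All 5 C-type genes had log2 fold changes below 0 at 28 months. Pcdhac1, whose product needs a carrier isoform to reach the cell surface, ran from 1.98 through 2.64 to 3.42 CPM at 3 months and from 0 through 1.77 to 2.29 CPM at 28 months. All 18 old libraries lay below the 3-month median, and the log2 fold change was -0.56 ± 0.15 (adjusted p = 0.0025). Pcdhac2, which spaces the axons of serotonergic neurons, ran from 21.4 through 29.9 to 33.9 CPM and from 0.23 through 24.3 to 30.7 CPM. Its log2 fold change was -0.31 ± 0.17 (adjusted p = 0.169), and -0.23 ± 0.06 (adjusted p = 0.00333) without the 2 libraries. It held 50.4% of the counts of the alpha cluster at 3 months and 50.2% at 28 months in the median library.

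Pcdhgc5, the member with the highest CPM, ran from 62.2 through 84.7 to 105 CPM at 3 months and from 0.574 through 71.4 to 95.1 CPM at 28 months. Its log2 fold change was -0.27 ± 0.18 (adjusted p = 0.259), and -0.19 ± 0.07 (adjusted p = 0.0272) without the 2 libraries. Pcdhgc3, which promotes dendrite branching in cortical neurons, had medians of 68.5 and 68.3 CPM (log2 fold change -0.12 ± 0.18, adjusted p = 0.64). Pcdhgc4, the isoform on which the survival of many interneurons depends, had medians of 10.7 and 9.83 CPM (-0.12 ± 0.11, adjusted p = 0.411). Neither was called without the 2 libraries. Pcdhgc3 then gave -0.04 ± 0.04.

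**Figure D4:**
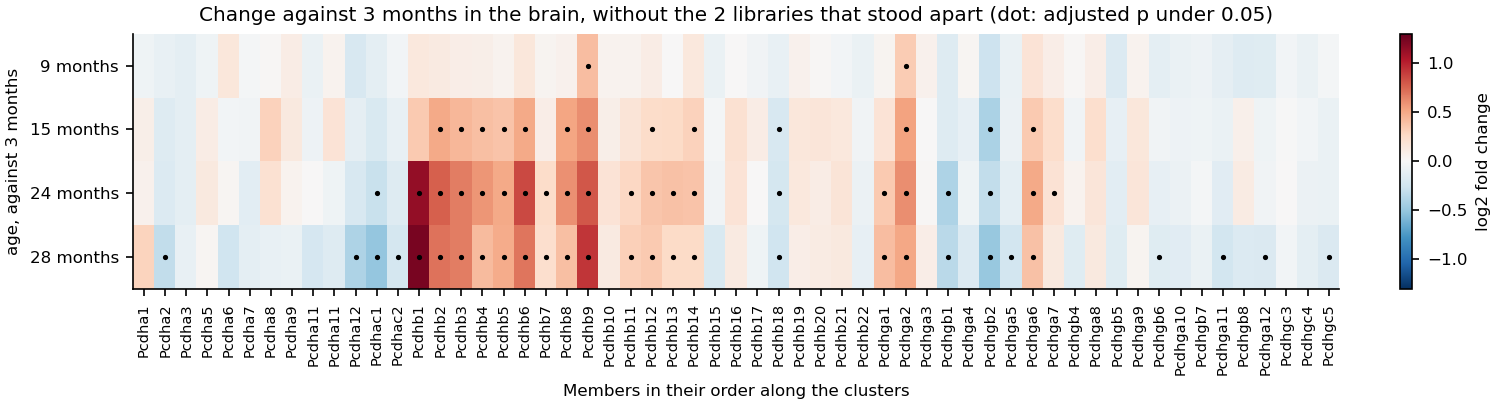
Log2 fold change of the 57 tested members at 9, 15, 24 and 28 months against 3 months in the brain, without the 2 libraries that stood apart, in the order of the genes along the clusters, with a dot where the adjusted p was under 0.05. The red block from Pcdhb1 to Pcdhb9 is filled by 24 months and differs little at 28 months.

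Some of the genes between Pcdhb1 and Pcdhb9 were higher before 28 months. Between 3 and 15 months 4 members were higher and none lower, all 4 of them between Pcdhb1 and Pcdhb9 (0.871% of all genes called, 0.524% as higher). They were Pcdhb3, Pcdhb6, Pcdhb8 and Pcdhb9. Leaving out the 2 libraries gave 11 higher and 2 lower members, against 1.87% of all genes, 1.17% as higher and 0.701% as lower. Between 3 and 24 months 11 members were higher and none lower (10.1% of all genes called, 6.19% as higher), of which 8 lay between Pcdhb1 and Pcdhb9. Leaving out the 2 gave 17 higher and 4 lower, against 17.1% of all genes, 9.4% as higher and 7.68% as lower. These comparisons share the 3-month libraries, so their values are not independent of each other.

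Between 24 and 28 months no member was called, where 1.09% of all genes were. In that comparison 3 of 57 members had an unadjusted p under 0.05, against 12.4% of all genes, and neither DESeq2 nor voom called a member. Without the 2 libraries the count was also 0 (3.58% of all genes), with 7 members at an unadjusted p under 0.05, against 17.1% of all genes. The medians of Pcdhb9 were 20.8 and 22.5 CPM at these ages and those of Pcdhb8 5.35 and 4.48 CPM. Neither difference was called, at log2 values of 0.07 ± 0.07 (adjusted p = 0.774) for Pcdhb9 and -0.23 ± 0.09 (adjusted p = 0.267) for Pcdhb8. Between 9 and 15 months no member and no other gene was called with all libraries (0% of all genes), and 8 members had an unadjusted p under 0.05, against 2.84% of all genes. Without the 2 libraries 4 genes were called in that step (0.0214%), and 2 of the 4 were Pcdhb5 (0.32 ± 0.07, adjusted p = 0.0213) and Pcdhb9 (0.21 ± 0.04, adjusted p = 0.021). Between 15 and 24 months no member was called with all libraries (0.732% of all genes), with 4 at an unadjusted p under 0.05, against 8.72% of all genes. Without the 2 libraries, Pcdhb1, Pcdhb6 and Pcdhb9 were higher in that step (1.23% of all genes). In the test of all ages together 13 members were called (20.6% of all genes), and 25 without the 2 libraries (30.3%).

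**Figure D5:**
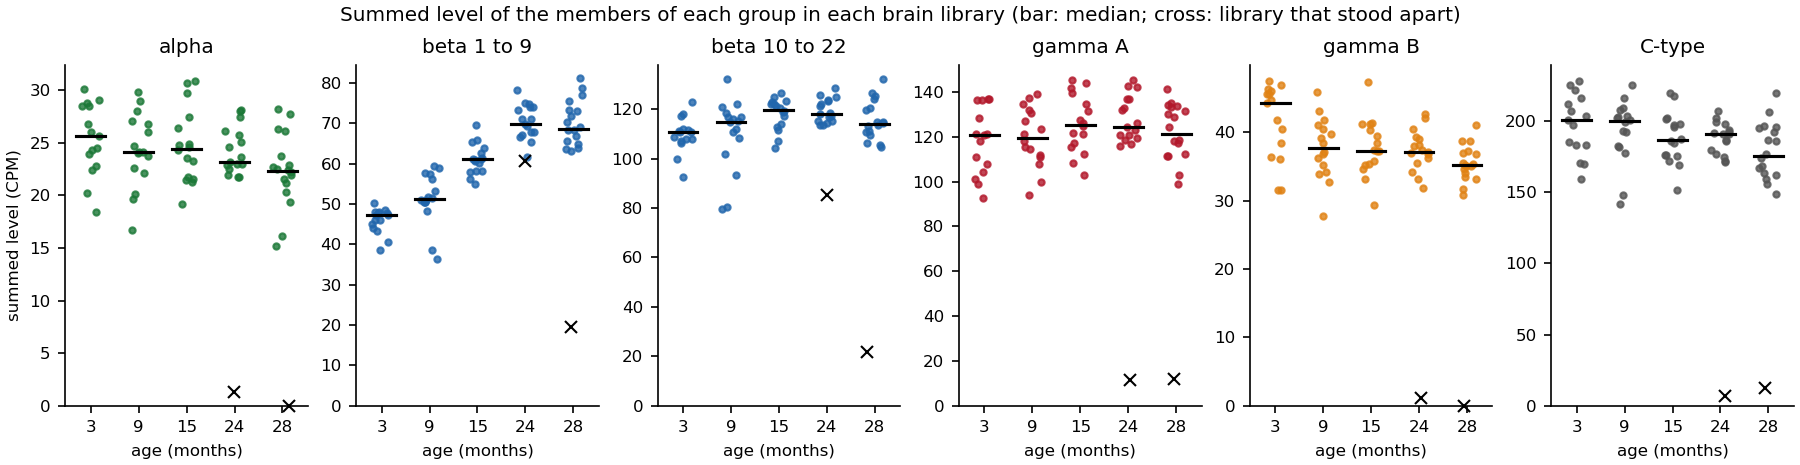
Summed level of the members of each group in every brain library by age, in CPM on axes that start at 0, with the median of each age as a bar and the 2 libraries that stood apart as crosses. The sum of Pcdhb1 to Pcdhb9 moves up between 3 and 24 months, and the sums of alpha, gamma B and C-type genes are lower at 28 than at 3 months in the median.

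Summed over the family, the brain level differed little, with a median of 558.6 CPM at 3 months and 552.8 CPM at 28 months. The makeup differed more. The sum of Pcdhb1 to Pcdhb9 had a median of 47.2 CPM at 3 months (38.7 to 50.2) and 68.7 CPM at 28 months (19.6 to 81.3). Without replicate 15 the lowest 28-month sum was 63.2 CPM, above every 3-month library. The sum of Pcdhb10 to Pcdhb22 had medians of 110.6 and 114.1 CPM and that of the gamma A genes 120.8 and 121.4 CPM. Gamma B genes had medians of 44.2 and 35.1 CPM, C-type genes 200.6 and 175.4 CPM and alpha genes 25.6 and 22.3 CPM, with ranges that overlapped. These sums are descriptions and were not tested. In bulk tissue, fewer cells that use a gene and less RNA of it per cell cannot be told apart.

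All 14 members called between 3 and 28 months kept their direction in each of the 3 preps fitted alone, with and without the 2 libraries. These members were chosen by their call over the 3 preps together, so part of this is built in. Fewer passed the threshold in single preps. In prep 1, 9 of the 10 higher and 1 of the 4 lower members were called (10.6% of all genes called). Prep 2 called 4 of the higher and none of the lower (1.96%). Prep 3, which held replicate 15 of the 28-month group, called 1 and none (6.36%). Once the 2 libraries were left out, preps 1, 2 and 3 called 12, 6 and 10 of the 16 higher members. Of the 12 lower ones they called 1, 0 and 3. Prep 1 held neither of the 2 libraries, and for preps 2 and 3 the share of all genes is not given here. The preps held 4 to 7 brain libraries per age.

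Of 23 genes for promoter choice and its chromatin, none was higher and 3 were lower at 28 months, where 16.3% of all tested genes were higher and 12% lower, and the median was -0.10 on the log2 scale. They were Smchd1, which helps keep the clusters silent (-0.25 ± 0.07, adjusted p = 0.0067), and the DNA demethylases Tet1 (-0.40 ± 0.09, adjusted p = 0.000215) and Tet3 (-0.19 ± 0.06, adjusted p = 0.0155). Ctcf gave -0.12 ± 0.06 (adjusted p = 0.114) and the cohesin subunit Rad21 -0.02 ± 0.09 (adjusted p = 0.891). With both libraries left out, 2 of the 23 were higher, among them Tet2 (0.28 ± 0.06), and 6 were lower, among them Setdb1 (-0.12 ± 0.03), whose product restrains the clusters (17.5% and 16.6% of all genes).

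Of 21 genes of binding partners and downstream signalling, none was higher and 7 were lower, beside 12% of all genes lower, with a median of -0.08. They included Ptk2 (-0.10 ± 0.03, adjusted p = 0.0113), the focal adhesion kinase bound by the shared end of the proteins. They also included Marcks (-0.21 ± 0.06, adjusted p = 0.00375), the actin regulator through which gamma proteins promote dendrite growth, and Adam10 (-0.17 ± 0.05, adjusted p = 0.00558), which sheds their outer part. Of 12 protocadherin genes outside the clusters, 6 were lower and none higher, with a median of -0.23. The median over all genes was 0.01, and neither list was tested against other genes. Pcdh12, a gene of blood vessel lining, fell by 1.52 on the log2 scale (SE 0.17, adjusted p = 8.44e-11), and Pcdh18 by 0.51 (SE 0.09, adjusted p = 1.46e-05). The 7 and 6 lower genes of these 2 lists were also 7 and 6 in number without the 2 libraries, beside 16.6% of all genes lower.

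Markers of neurons as a whole differed little. For the counts of called markers that follow, 16.3% of all tested genes were higher and 12% lower at 28 months. Without the 2 libraries these shares were 17.5% and 16.6%. Of 10 neuron markers 1 was lower at 28 months, and their median was -0.04 on the log2 scale, and without the 2 libraries 1 was higher, with a median of 0.02. Their summed level ran from 6836 to 8585 CPM at 3 months and, without the 2 libraries, from 6987 to 8498 CPM at 28 months. Newborn neuron markers were lower in 3 of 5, with a median of -0.56, and their sum ran from 62.8 to 87.0 CPM at 3 months and from 48.0 to 77.9 CPM at 28 months. Microglia markers were higher in 3 of 4 (4 of 4 without the 2 libraries), with sums of 207 to 253 CPM and 215 to 386 CPM. Of 5 astrocyte markers 2 were higher and 2 lower (1 and 2 without the 2 libraries), and of 4 markers of meninges and fibroblasts 2 were lower. Markers of oligodendrocytes were not called, 1 of 3 of their precursors was lower, and 1 of 4 of endothelial cells was higher (1 higher and 1 lower without the 2 libraries). The precursor markers summed to 141 to 176 CPM at 3 months and 71.8 to 133 CPM at 28 months (from 94.1 CPM without the 2 libraries). These ranges did not overlap. Markers of parts of the brain that dissection can include differed between libraries by far more. The 4 cerebellar granule cell markers summed to 4.67 to 23.3 CPM at 3 months and 4.01 to 257 CPM at 28 months, with 2 of the 3 tested called as higher. The 4 pituitary markers summed to 0.789 to 655 CPM at 3 months and 0.586 to 9.99 CPM at 28 months (up to 4.86 CPM without the 2 libraries), with both that were tested called as lower. The 6 choroid plexus markers summed to 47.5 to 6449 CPM and 46.2 to 5324 CPM, with none called. Of 5 serotonergic neuron markers 4 were tested and 1 was lower, with summed levels of 32.7 to 52.2 CPM at 3 months and 19.1 to 39.3 CPM at 28 months (from 24.2 CPM without the 2 libraries). The part of these cells and tissues in the members' values was not tested.

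In the liver the family was near the limit of counting. Of the 2 least typical liver libraries, 28 months replicate 14 held the highest sum of all members, 47.1 CPM, against at most 20.6 CPM in the other 28-month livers. Its neuron markers summed to 67.7 CPM, against at most 20.6 CPM, and its hepatocyte markers to 18235 CPM, against at least 76821 CPM. The other was 24 months replicate 13. Of the 58 members 28 had a median of 3 counts or fewer per library, which covers counting error only, and 20 were tested. Pcdhgc3 was the highest, with a median of 203 counts, and ran from 4.02 through 5.45 to 7.49 CPM at 3 months and from 3.86 through 6.25 to 13.4 CPM at 28 months. Of the 20 tested members, 9 were higher and none lower at 28 months, against 61.9% of all tested liver genes called and 31.9% called as higher. These were 7 beta genes, Pcdhb4, Pcdhb8, Pcdhb9, Pcdhb11, Pcdhb12, Pcdhb16 and Pcdhb22, with Pcdhgb7 and Pcdhgc3. Pcdhb9 ran from 0.0288 through 0.181 to 0.309 CPM at 3 months and from 0.181 through 0.402 to 0.842 CPM at 28 months in the liver, a log2 fold change of 1.38 ± 0.23 (adjusted p = 3.01e-07). It had a median of 8 counts per library, and 5 of the 3-month libraries had 3 counts or fewer. Without the 2 least typical liver libraries, 8 of 19 tested members were higher (62% of all genes called, 30.6% as higher), and Pcdhgc3 was no longer called. Over the same ages 3 of 4 genes of the microglia list were higher, with sums of 57.0 to 212 CPM at 3 months and 93.1 to 513 CPM at 28 months. Of the 3 neuron markers tested 2 were higher and of 4 hepatocyte markers 2 were lower (1 higher and 2 lower without the 2 liver libraries). Of 4 stellate cell markers 2 were higher with and without those libraries, with sums of 69.9 to 134 CPM at 3 months and 85.0 to 148 CPM at 28 months. Of 4 cholangiocyte markers 2 were higher, and none was higher and 1 lower without the 2 libraries, with sums of 8.84 to 28.0 CPM and 9.67 to 59.8 CPM (up to 18.3 CPM without them). Of 4 fibroblast markers 2 were higher and 1 lower (1 and 1 without the 2 libraries), with sums of 409 to 552 CPM and 415 to 671 CPM. Of the genes of the brain cell lists, 1 of 1 newborn neuron marker tested was higher (2.81 on the log2 scale, with sums of 0.0323 to 1.32 CPM and 0.135 to 3.42 CPM), as were 3 of 4 oligodendrocyte markers and 3 of 5 astrocyte markers, of which 1 more was lower. Of 3 endothelial markers tested 1 was higher and 1 lower. The part of these cells in the liver values was not tested.

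The change between 3 and 28 months was then compared between the tissues in 1 model, for the genes kept in both. Of the 20 members kept, 12 differed between brain and liver (49.2% of all genes called), 11 with the mouse as a block (45%) and 13 without the 2 brain libraries (50.1%). Leaving those out ended the call of Pcdhb8 (adjusted p = 0.0506) and added Pcdhgc3 (-0.37) and Pcdhb14, which at 0.39 was more positive in the brain. The liver libraries 24 months replicate 13 and 28 months replicate 14 were kept in these fits. Without them 19 members were kept and 8 differed (49.3% of all genes called). Of the 12, 7 were then still called, the calls of Pcdhb9 (-0.43, adjusted p = 0.0885), Pcdhb11, Pcdhb16, Pcdhb18 and Pcdhgb6 ended, and Pcdhb14 (0.44) was added. In the first fit all 12 had the more positive log2 fold change in the liver. Pcdhb9 rose in both tissues, by 0.87 in the brain and 1.38 in the liver on the log2 scale, a difference of -0.55 ± 0.22 in the joint model (brain minus liver, adjusted p = 0.0286). Of the 12, 4 were called as higher in both tissues, Pcdhb4, Pcdhb8, Pcdhb9 and Pcdhb12. Another 6 had opposite signs in the tissues, among them Pcdhgb2, at -0.56 in the brain and 0.28 in the liver. Without the 2 liver libraries the liver value of Pcdhb18 turned from 0.25 to -0.09, the sign it had in the brain, and that of Pcdhgb6 was 0.014.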

How the data were processed

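RNA of brain and liver was sequenced from the same mice. For 1 mouse of 3 months, number 6, only the liver was analysed here. The authors deposited 1 table of raw counts per tissue, and their steps, per the submitters' processing notes, named cutadapt 2.8, HISAT2 2.1.0, SAMtools 1.9, featureCounts of Subread 2.0.1 and the GRCm38.p6 (mm10) build. The annotation release, the strand setting and the treatment of reads shared by overlapping genes are not given in the sources used here. The library kit was stranded, per the labels. No column was left unused (0 columns).

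Each tissue was fitted with edgeR 4.0.16 in R 4.3.3, with filterByExpr by age, TMM factors, and age and prep as terms, over all libraries of the tissue. Adjusted p-values are Benjamini-Hochberg values over all tested genes (edgeR's quasi-likelihood test unless another tool is named). Standard errors (SE) were derived from the fold change and its F statistic. The code was tested on simulated data. Alternatives used RLE factors, DESeq2 1.42.0, voom in limma 3.58.1, no filter, other terms and fewer libraries. Symbols matched 55144 of 55471 identifiers.

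Described with values were all C-type genes, the highest level and the highest and lowest fold change of each other group, and the 12 called members with the smallest p at 28 months. All other members named were chosen after their values were seen, the beta genes by their place included. The family, the gene lists and these rules were chosen with earlier results of these data known. The labels name separate mice, so p-values measure the spread between mice. Floors of 3 counts cover counting error only, since PCR copies were not told apart. No sequence of these genes is shown.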

Additional observations from a re-analysis of the deposited data

Results flagged for a closer look

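The change from 3 to 28 months differed between brain and liver for 12 members in the tissue by age term of the edgeR model. In that fit 49.2% of all tested genes were called. Log2 values are given as brain minus liver. Among beta genes the members called were Pcdhb4 (-0.67), Pcdhb8 (-0.53), Pcdhb9 (-0.55), Pcdhb11 (-0.64), Pcdhb12 (-0.61), Pcdhb16 (-0.59), Pcdhb18 (-0.64) and Pcdhb22 (-0.73). Among gamma genes they were Pcdhgb2 (-0.88), Pcdhga5 (-0.83), Pcdhgb6 (-0.61) and Pcdhgb7 (-1.31). With the mouse as a block, 11 of the 12 were called (45% of all genes), and Pcdhgb6 was not. Without the 2 brain libraries that stood apart Pcdhb8 was not called (adjusted p = 0.0506, 50.1% of all genes called). The 2 liver libraries least like the others were 24 months replicate 13 and 28 months replicate 14. Without them 7 of the 12 were called (49.3% of all genes). The calls of Pcdhb9 (-0.43), Pcdhb11 (-0.38), Pcdhb16 (-0.42), Pcdhb18 (-0.24) and Pcdhgb6 (-0.26) ended. The value of Pcdhgb7 was then -0.90 and that of Pcdhga5 -0.63. Liver counts of these members were low, and the part of this was not tested.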

How the results depend on the processing

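With RLE factors, without the prep term or with no filter on low counts, every brain count stayed within 1.5 times its value, and that of 28 against 24 months stayed at 0 under all 13 settings. In what follows the share of all tested genes called in the same fit stands in parentheses after each count of members called, except for ranges over refits. The count for 28 against 3 months, 14 (28.3%), was 30 (41.2%) with voom, 22 (31.5%) without 24 months replicate 13, 28 (34.1%) without both libraries, 9 (17%) in a fit of those 2 ages alone, 6 (1.96%) in prep 2 and 1 (6.36%) in prep 3. That for 24 against 3 months, 11 (10.1%), was 18 (13.4%) with DESeq2, 23 (26.5%) with voom, 19 (18.7%) without 28 months replicate 15, 21 (17.1%) without both libraries, 4 (0.597%) in prep 2 and 0 (0.486%) in prep 3. That for 15 against 3 months, 4 (0.871%), was 7 (1.23%) with DESeq2, 13 (4.39%) with voom, 13 (1.87%) in a fit of 2 ages, 10 (1.37%) without 28 months replicate 15, 13 (1.87%) without both, 2 (0.0911%) in prep 1, 1 (0.0586%) in prep 2 and 0 (0%) in prep 3. That for 9 against 3 months, 1 (0.315%), was 2 (2.36%) with voom, 2 (0.942%) without both libraries and 0 (0%) in preps 2 and 3. The count over all ages, 13 (20.6%), was 25 (30.3%) without both libraries and 22 (33.8%) with age as a number, 16 higher and 6 lower. The liver count, 9 (61.9%), was 17 (35.1%) with no filter, 3 (39.9%) in prep 1 and 5 in each of preps 2 (15.6%) and 3 (42.2%). Leaving out each library of the ages compared in turn gave 10 to 13 for 24 and 13 to 20 for 28 against 3 months. The highest counts, 13 and 20, came without 24 months replicate 13 (9.11%) and without 28 months replicate 15 (29.4%). Shares of the other refits are not given here. In prep 1 alone, Pcdhgb7 (0.0067) and Pcdhgc4 (0.026) had log2 values above 0. The causes were not tested.

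Replicate numbers recur across ages but name different mice. Same-numbered brain libraries had a median correlation of deviations of 0.00955 (other numbers 0.003), and 9 of 81 libraries correlated best with their own number. The replicate block gave 1 (0.299%), 4 (0.828%), 10 (9.32%) and 16 (25.9%) members at 9, 15, 24 and 28 months, and 12 (60.9%) in the liver. The tissue by age count, 12 (49.2%), was 11 (45%) with the mouse as the replicate block and 8 (49.3%) without the 2 liver libraries. In the liver, 28 of the 58 members had a median of 3 counts or fewer per library, which limits the precision there.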
